A study of Mus musculus with 2 samples.

Results

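The enzymes that carry glucose to pyruvate and lactate, and those of the pentose phosphate branch, were followed by their mRNA signal in macrophage-like cells with and without added miR-155. The members were 31 genes chosen by function: 15 for the steps of glycolysis up to enolase, 2 for regulators of fructose 2,6-bisphosphate, 7 for the fate of pyruvate and 7 for the pentose phosphate branch. Each gene was read from its brightest probeset among those annotated with 1 gene symbol. That gave values for 27 of the 31 genes, out of 18193 genes named on the array. Gpi1, Gapdh, Eno1 and G6pdx had no such probeset.

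The cells were RAW264.7, an established mouse macrophage-like line, grown in DMEM with 10% fetal bovine serum. One arm was infected with the empty retroviral vector MSCV and the other with MSCV encoding miR-155. Both arms were put under puromycin (7 µg/ml) and then cloned by limiting dilution, and total RNA of 5 clones was pooled for each. Each pool was hybridised to 1 Affymetrix array, so both groups carry the retrovirus and the selection, and each value comes from 1 pool of clones with no replicate. The question put by the study was which mRNAs miR-155 regulates.

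Glycolysis splits glucose into pyruvate in the cytosol and yields ATP and NADH. Lactate dehydrogenase turns pyruvate into lactate and restores NAD+, while the pyruvate dehydrogenase complex sends it to the mitochondria, held back by its kinases. The pentose phosphate branch leaves at glucose 6-phosphate. Its oxidative steps yield NADPH, which the phagocyte oxidase and glutathione reduction use, and its non-oxidative steps interconvert sugar phosphates and lead back to glycolysis. In macrophages, inflammatory stimulation is known to raise glycolysis, and HIF-1 is a known transcriptional activator of many of its genes.

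The mature 5p strand of miR-155, the microRNA encoded by the vector of the miR-155 arm, is shown. Its sequence, from RefSeq (GRCm38.p6, chr16:84714143-84714165, plus strand), is written with the seed, bases 2 to 8, in capitals.
mmu-miR-155-5p: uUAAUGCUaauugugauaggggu
Target sites for this seed in the members' transcripts were not analysed here.

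The median signal over all 45101 probesets was 15.4 with the empty vector and 14.1 with miR-155. In what follows a pair of signals is given in that order, empty vector first. For each gene the log2 ratio was the log2 signal of the miR-155 array minus that of the empty-vector array. The 9097 genes in the upper 50% of mean log2 signal were kept, which set a signal floor of 25.8, the geometric mean of the dimmest gene kept. Their median log2 ratio was −0.05. With 1 array per group no test was possible, and the local SD given beside a ratio is the robust SD of the ratios of the 500 genes nearest in signal. It describes scatter between these 2 arrays, in which array noise and real differences are held together, and it does not measure the variation between clones. All 10 macrophage markers listed, among them Csf1r and Cd68, were above the floor on both arrays. Of 21 measured markers of lymphocytes, granulocytes, mast cells, stroma and erythroid cells, 0 reached it with the empty vector and 1, an erythroid marker, with miR-155.

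Of the 27 members measured, 25 passed the filter and 22 of these lay within 1.5-fold, a share of 88.0% against 88.7% of all genes kept. Hexokinase 3 and Pfkfb3 reached 1.5-fold in the higher direction with miR-155 (2 of 25, against 5.32% of all genes kept), and Ldhb reached it in the lower direction (1 of 25, against 5.99%). Pfkfb3 and Ldhb each had a reading below the floor on 1 array. Among the 23 members whose readings were both above the floor, 1 was that much higher and 0 lower, against 4.39% and 4.93% of the 8765 such genes. The median log2 ratio of the members kept was −0.005, against −0.05 for all genes kept. Large ratios are frequent among dim genes, and 10 of the 25 members lay in the brightest 20% of genes kept, where 1.54% reached 1.5-fold upwards and 1.48% downwards.

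**Figure D1:**
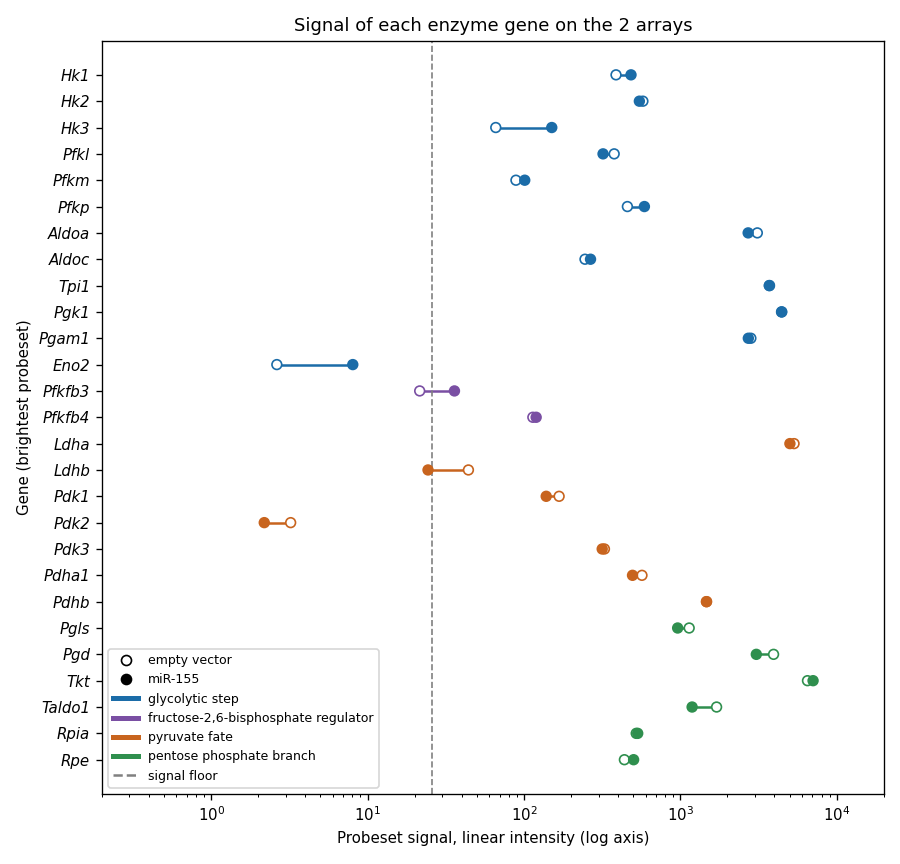
Signal of the brightest probeset of the 27 measured enzyme genes on the empty-vector array (open points) and the miR-155 array (filled points), on a logarithmic axis of linear intensity, coloured by role, with the signal floor of 25.8 dashed. Of the 25 genes kept, 22 lie within 1.5-fold, and Hk3, Pfkfb3 and Ldhb are the members above the filter with at least a 1.5-fold gap.

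The hexokinases, which trap glucose in the cell as glucose 6-phosphate, did not share a direction. Hk3, the hexokinase typical of myeloid cells, read 66.0 and 151, which was 2.28-fold higher with miR-155 (log2 ratio 1.19, local SD 0.36). Its further probeset read 59.6 and 79.3, a log2 ratio of 0.41, so both were higher and only the brightest passed 1.5-fold. The brightest carries an x mark in its identifier, given where some probes may also match other sequences. The further probeset carries no mark. Hk1, the broadly expressed form, read 388 and 484 (log2 ratio 0.32, local SD 0.18), with 0.48 in the other probeset. Hk2, the form induced by HIF-1 and by growth signals, read 576 and 547 (log2 ratio −0.08, local SD 0.19).

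Phosphofructokinase commits sugar to glycolysis, and its 3 subunit genes stayed within 1.5-fold. The platelet-type subunit gene Pfkp read 459 and 589 (log2 ratio 0.36, local SD 0.20), with 0.22 in its other probeset above the floor. The muscle-type Pfkm read 88.9 and 101 (0.19, local SD 0.36). The liver-type Pfkl read 377 and 320 (−0.24, local SD 0.21), but its next probeset gave 0.02. Thus Pfkp was higher on both of its bright probesets, and the probesets of Pfkl did not share a sign.

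The bifunctional enzymes that make and remove fructose 2,6-bisphosphate, the activator of phosphofructokinase, were dim. Pfkfb3, whose kinase activity predominates, read 21.5 and 35.9, and its other probeset 16.9 and 38.7. On both, only the miR-155 reading was above the floor of 25.8, so no ratio is given. Pfkfb4 read 114 and 120 (log2 ratio 0.07, local SD 0.31).

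A further 3 glycolytic steps, which follow aldolase, had ratios within the local SD of 0. Triose-phosphate isomerase, Tpi1, read 3703 and 3717 (log2 ratio 0.006), and phosphoglycerate kinase 1, the first ATP-yielding step, read 4451 and 4437 (−0.005). Phosphoglycerate mutase 1 read 2824 and 2721 (−0.05). The local SD at these signals was 0.11 for each. The further probesets of Pgk1 gave 0.22 and −0.43, on either side of the value near 0 in the brightest.

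Aldolase cleaves fructose 1,6-bisphosphate into triose phosphates. Aldoa, the main form outside liver and brain, read 3107 and 2715 (log2 ratio −0.19, local SD 0.11). All 5 of its probesets were lower with miR-155, from −0.60 to −0.19, and all 5 carry the x mark. Aldoc, the brain-type form, read 246 and 266 (0.12, local SD 0.24). Eno2, the neuronal enolase, did not pass the filter and read 2.63 and 8.04.

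Gapdh oxidises glyceraldehyde 3-phosphate, and it was covered only by probesets outside the choice above. The array's own control probesets for its 3′ end, middle and 5′ end read 6911, 7452 and 8699 with the empty vector and 7298, 7890 and 9031 with miR-155. Their log2 ratios were 0.08, 0.08 and 0.05. These values were all slightly higher in the miR-155 array, by at most 1.06-fold.

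Over the 11 glycolytic genes kept, 1 was at least 1.5-fold higher and 0 lower, against 5.32% and 5.99% of all genes kept. A ratio above 0 was found in 6 and below 0 in 5 (45.5% below, against 58.0% of all genes kept). The median log2 ratio of the 11 genes was 0.006.

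**Figure D2:**
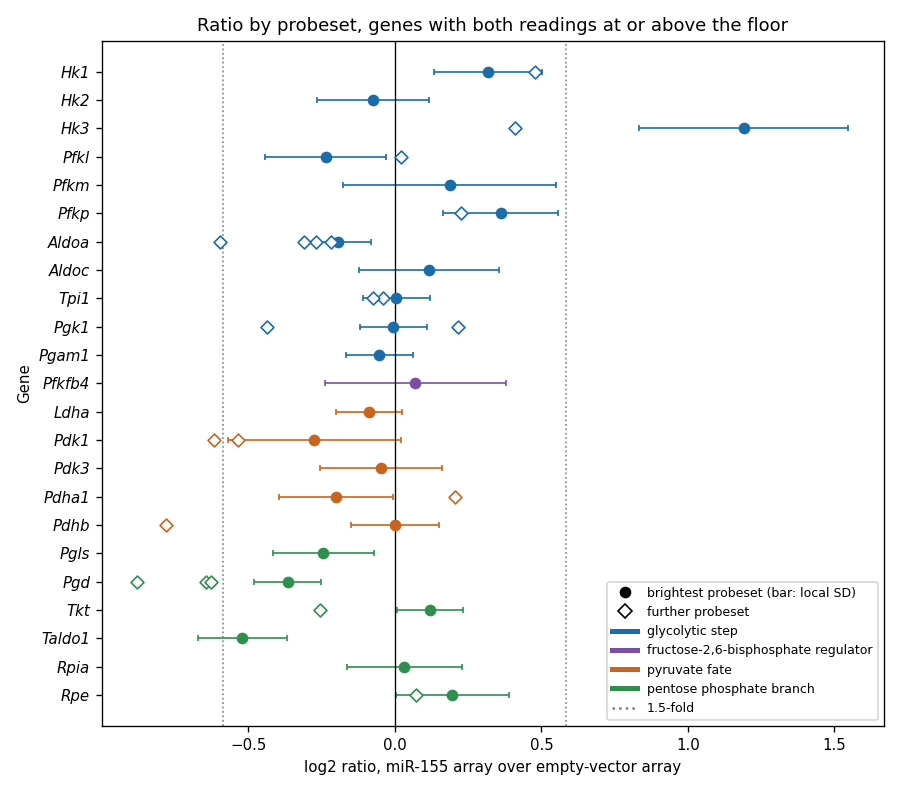
Log2 ratio of the miR-155 array over the empty-vector array for the 23 enzyme genes read above the floor on both arrays, with the brightest probeset as a filled point (bar, ± the local SD of the ratio) and further probesets above the floor as open diamonds. All 4 Pgd probesets, all 5 of Aldoa and all 3 of Pdk1 lie below 0, and the dotted lines mark 1.5-fold.

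Of the 6 genes kept that decide the fate of pyruvate, 5 had a ratio below 0 in the brightest probeset. That is 83.3%, against 58.0% of all genes kept, whose median was −0.05. Ldha, the muscle-type lactate dehydrogenase subunit that favours lactate formation, read 5336 and 5019 (log2 ratio −0.09, local SD 0.11). Ldhb, the heart-type subunit, read 44.1 and 24.4, the second just below the floor. Its 3 further probesets read 19.3 and 3.73, 13.7 and 1.87, and 5.59 and 0.62, so all 4 were lower with miR-155, and in each the miR-155 reading was below the floor.

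The pyruvate dehydrogenase kinases switch the complex off by phosphorylation. Pdk1, a known HIF-1 target, read 168 and 139 (log2 ratio −0.27, local SD 0.29). Its other probesets above the floor gave −0.53 and −0.62, so 3 of 3 were lower and 1 of them passed 1.5-fold. Pdk3 read 327 and 316 (−0.05, local SD 0.21), and Pdk2 was dim at 3.22 and 2.18.

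The E1 component of pyruvate dehydrogenase, which decarboxylates pyruvate, was represented by both of its subunits. The alpha subunit gene Pdha1 read 568 and 495 (log2 ratio −0.20, local SD 0.20), and its other probeset gave 0.20 with the opposite sign. The beta subunit gene Pdhb read 1470 on both arrays (0.0002), whereas its dimmer probeset read 50.6 and 29.5 (−0.78). The probesets of neither subunit shared a direction. The median of the 6 pyruvate fate genes kept was −0.14, and −0.09 for the 5 with both readings above the floor.

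The lowest ratios among members with both readings above the floor were those of Taldo1, on 1 probeset, and Pgd, both in the pentose phosphate branch. Transaldolase, Taldo1, which moves a dihydroxyacetone group between sugar phosphates, read 1705 and 1189, 1.43-fold lower (log2 ratio −0.52, local SD 0.15). Pgd, 6-phosphogluconate dehydrogenase, which makes the second NADPH of the oxidative steps, read 3946 and 3061, 1.29-fold lower (−0.37, local SD 0.11). Its 3 further probesets read 3720 and 2381, 3408 and 1854, and 1854 and 1202, with log2 ratios of −0.64, −0.88 and −0.63. All 4 were thus lower with miR-155, and the 3 not used for the gene value passed 1.5-fold. Only the dimmest of the 4 (−0.63) is without the x mark.

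The remaining enzymes of the branch were nearer to 0. Pgls, the lactonase between the oxidative dehydrogenases, read 1139 and 961 (log2 ratio −0.24, local SD 0.17). Both measured oxidative genes were therefore lower, with G6pdx, the entry enzyme, not measured by a probeset of its own. Among the non-oxidative genes, transketolase, Tkt, read 6502 and 7059 (0.12, local SD 0.11), but its next probeset read 2144 and 1796 (−0.26). The ribose 5-phosphate isomerase Rpia read 522 and 534 (0.03, local SD 0.20) and the epimerase Rpe 439 and 503 (0.20, local SD 0.19). The non-oxidative genes thus went both ways, with Taldo1 apart from the other 3.

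Glycolytic steps and the pentose phosphate branch differed little in their medians. The median log2 ratio was 0.006 for the 11 glycolytic genes and −0.11 for the 6 genes of the branch, a difference of 0.11. The ranges overlapped, from −0.24 to 1.19 in glycolysis and from −0.52 to 0.20 in the branch. With 1 array per group this difference has no test. It was 0.24 with the mean of all probesets. It was 0.29 with plain probesets only, those with no x, s, a or f mark in the identifier. That left 5 glycolytic and 4 pentose phosphate genes, without Pgd and Taldo1. The Taldo1 probeset was left out by its a mark, which stands for transcripts of the same gene.

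**Figure D3:**
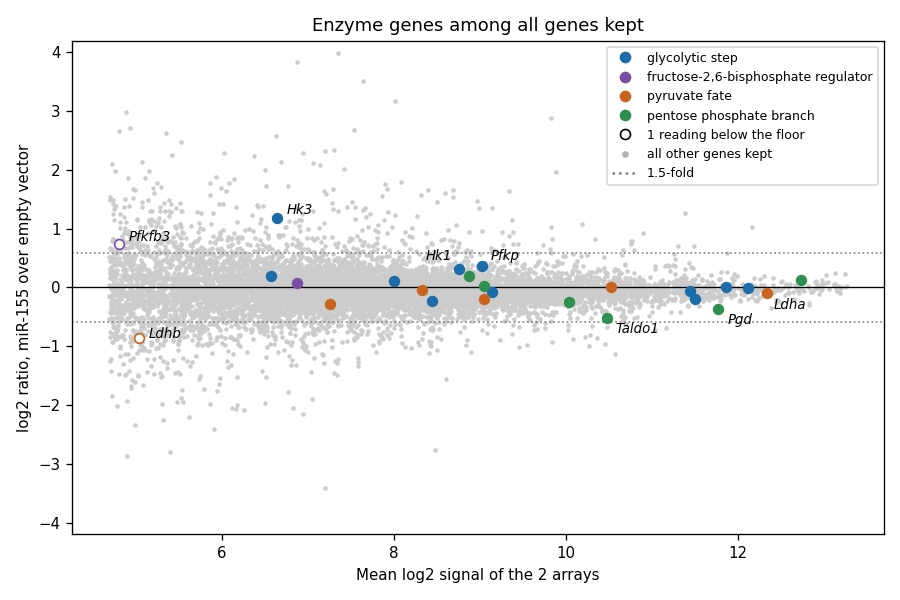
Log2 ratio (vertical axis) against the mean log2 signal of both arrays (horizontal axis) for the 9097 genes kept (grey), with the 25 enzyme genes coloured by role and open where 1 reading was below the floor. The grey cloud narrows towards bright genes, and Pgd and Taldo1 lie near its lower edge while Ldha lies within it.

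Probesets of one gene share the same RNA and array and are not replicates, but they show how far a ratio depends on the probes. Of 13 members with at least 2 probesets above the floor on both arrays, 7 had the same sign in all. These were Hk1, Hk3, Pfkp and Rpe, higher, and Aldoa, Pdk1 and Pgd, lower. The other 6, Pfkl, Tpi1, Pgk1, Pdha1, Pdhb and Tkt, had mixed signs. Of the 44 member probesets above the floor on both arrays, 1 reached 1.5-fold upwards and 6 downwards, against 4.06% and 5.58% of all 14908 such probesets. The 6 belonged to Pgd (3), Aldoa, Pdk1 and Pdhb (1 each).

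Sequence upstream of the transcription start is shown for 4 members: Hk3, the member with the highest ratio above the floor, Pgd and Taldo1, the lowest, and Ldha, a lactate gene near 0. Each run is the 250 bases before the 5′-most start in RefSeq (GRCm38.p6), in the direction of transcription. Capitals mark the ACGTG form of the HIF core or its reverse complement CACGT, and the form GCGTG was not searched. The core of the antioxidant response element that NRF2 binds, TGACNNNGC, was also searched on both strands and was not found in these 4 windows. The windows are chr13:55021386-55021635 (minus strand) for Hk3, chr7:46845554-46845803 (plus) for Ldha, chr4:149166706-149166955 (minus) for Pgd and chr7:141391910-141392159 (plus) for Taldo1.
Hk3: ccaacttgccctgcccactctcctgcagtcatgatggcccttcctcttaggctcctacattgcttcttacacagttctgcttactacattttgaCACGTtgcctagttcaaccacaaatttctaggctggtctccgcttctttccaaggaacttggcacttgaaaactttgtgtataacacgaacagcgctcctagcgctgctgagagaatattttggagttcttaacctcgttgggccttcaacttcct
Ldha: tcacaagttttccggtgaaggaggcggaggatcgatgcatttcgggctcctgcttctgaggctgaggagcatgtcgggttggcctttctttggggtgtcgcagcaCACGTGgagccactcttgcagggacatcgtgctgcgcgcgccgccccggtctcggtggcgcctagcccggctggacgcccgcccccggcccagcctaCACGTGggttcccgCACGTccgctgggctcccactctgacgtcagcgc
Pgd: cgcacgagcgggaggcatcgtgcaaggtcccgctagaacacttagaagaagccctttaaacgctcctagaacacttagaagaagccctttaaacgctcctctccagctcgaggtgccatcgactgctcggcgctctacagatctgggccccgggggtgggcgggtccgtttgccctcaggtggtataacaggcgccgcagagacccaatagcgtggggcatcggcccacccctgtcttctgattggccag
Taldo1: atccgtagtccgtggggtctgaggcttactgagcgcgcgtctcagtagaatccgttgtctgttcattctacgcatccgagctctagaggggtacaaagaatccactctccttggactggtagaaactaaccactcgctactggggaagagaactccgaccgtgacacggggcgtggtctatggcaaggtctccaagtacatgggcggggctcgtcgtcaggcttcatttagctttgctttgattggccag
The Ldha window held the ACGTG form at 3 places, 2 of them the palindrome CACGTG, in which this form and its reverse complement overlap. The Hk3 window held it once, and those of Pgd and Taldo1 did not. Both of these windows hold GCGTG, which the search did not cover. All 31 members matched a promoter. By the same search 10 of the 31 held the ACGTG form, against 16.5% of 27025 genes: Hk2, Hk3, Pfkm, Pgam1, Pgk1, Pfkfb3, Ldha, Pdk2, Pdk3 and Pdhb. None of these belongs to the pentose phosphate branch (0 of 7). TGACNNNGC was found for 1 of 31 members, G6pdx, against 10.1% of genes. These matches describe letters in a window and not bound sites.

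Genes on either side of these enzymes were read from 8 lists with 106 genes, of which 98 had a probeset of their own and 75 passed the filter. Of the 75, 2 reached 1.5-fold upwards and 8 downwards, against 5.32% and 5.99% of all genes kept. The median log2 ratio of the 75 was −0.11. Restricted to the 73 with both readings above the floor, 2 were higher and 6 lower, against 4.39% and 4.93% of all such genes. Pyruvate kinase, Pkm, which makes pyruvate, read 4830 and 4336 (log2 ratio −0.16, local SD 0.11). The muscle-type enolase Eno3 read 252 and 152 on 1 probeset, 1.66-fold lower (−0.73, local SD 0.28).

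Transport of glucose and lactate had a median log2 ratio of 0.07 over 9 genes. The main glucose transporter Slc2a1 read 693 and 743 (log2 ratio 0.10, local SD 0.18), with 2 more probesets at 0.13 and 0.19. The lactate and pyruvate transporter Slc16a7 read 66.6 and 23.1, the second below the floor. Of the 9 genes, 0 were at least 1.5-fold higher and Slc16a7 was the 1 that much lower, against 5.32% and 5.99% of all genes kept.

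The list for the entry of pyruvate into mitochondria, which also holds malic enzymes that make pyruvate, had the lowest median among the 8 lists, −0.33 over 9 genes. Of these, 8 had a ratio below 0, against 58.0% of all genes kept. The exception was Mpc1, a subunit of the mitochondrial pyruvate carrier itself, which read 825 and 1119 (log2 ratio 0.44, local SD 0.17) and was named after its value was seen. Pdhx, the binding protein that anchors the E3 component in the pyruvate dehydrogenase complex, read 320 and 183, 1.75-fold lower (log2 ratio −0.81, local SD 0.24). Pdhx had 1 probeset. Malic enzyme 1, Me1, another source of cytosolic NADPH, read 299 and 172, 1.74-fold lower (−0.80, local SD 0.25), with −1.11 in the other probeset. These 2 of the 9 genes were at least 1.5-fold lower and 0 were as much higher, against 5.99% and 5.32% of all genes kept.

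In the citric acid cycle list, 19 of 20 genes were within 1.5-fold (95.0%, against 88.7% of all genes kept). These 20 were bright, the dimmest being Ogdh at 364 and 330, and large ratios are rarer among bright genes. In the brightest 20% of genes kept, 1.54% reached 1.5-fold upwards and 1.48% downwards, and in the next 20%, 2.47% and 2.09%. Over the list, which also holds the cytosolic enzymes Acly, Aco1, Idh1 and Mdh1, the median was −0.12, and 14 ratios were below 0 (70.0%, against 58.0%). The gene past 1.5-fold was the mitochondrial NADPH-forming isocitrate dehydrogenase Idh2, at 835 and 537, 1.56-fold lower (log2 ratio −0.64, local SD 0.19), with −0.53 in its further probeset. Glycogen and hexose phosphate genes went both ways around a median of 0.06 over 9 genes. The branching enzyme Gbe1 read 89.8 and 31.8, 2.83-fold lower (−1.50, local SD 0.44), on 1 probeset whose miR-155 reading was close to the floor of 25.8. The phosphoglucomutase Pgm1 read 146 and 233, 1.60-fold higher (0.68, local SD 0.28). The further probeset of Pgm1 read 15.7 and 10.1, both below the floor and in the other direction.

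No gene passed 1.5-fold among 6 further genes of the pentose phosphate pathway and of sugar entry into nucleotides (median −0.09). The same held for 4 genes of gluconeogenesis and the glycerol shuttle (median 0.16). Of all genes kept, 88.7% stayed within 1.5-fold. Of the 6, 5 had a ratio below 0 (83.3%, against 58.0% of all genes kept). Among these was H6pd, of the pentose phosphate part of the list, at 66.6 and 53.8 (log2 ratio −0.31, local SD 0.40). The list of hypoxia and glucose regulators had a median of −0.22 over 12 genes and −0.16 over the 11 above the floor. Of the 12, 1 was at least 1.5-fold higher and 2 lower, against 5.32% and 5.99% of all genes kept. Hif1a, the oxygen-regulated subunit of HIF-1, read 758 and 584 (log2 ratio −0.38, local SD 0.19). Over the 12 genes, 4 ratios were above 0 and 8 below (66.7% below, against 58.0% of all genes kept). The known HIF-1 targets past 1.5-fold with both readings above the floor did not share a direction. Ndrg1 read 64.1 and 130, 2.03-fold higher (1.02, local SD 0.36). The mitophagy receptor Bnip3 read 306 and 181 on 1 probeset, 1.69-fold lower (−0.76, local SD 0.23). All 5 probesets of Ndrg1 were higher, from 0.55 to 1.02. The mitochondrial adenylate kinase Ak4 read 87.2 and 18.2, the second below the floor.

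**Figure D4:**
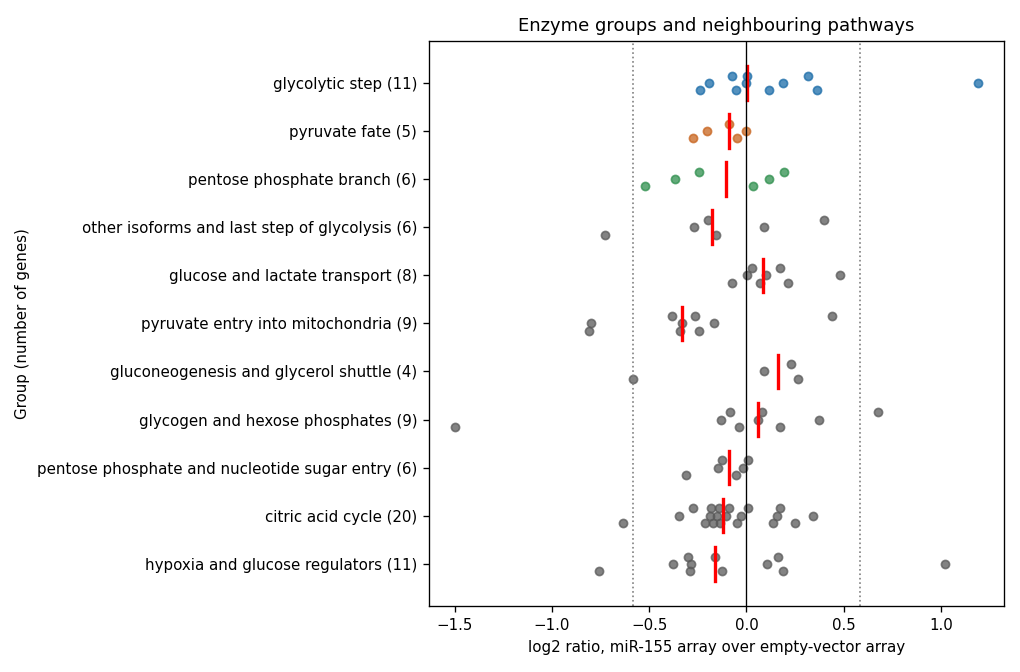
Log2 ratio of the miR-155 array over the empty-vector array for genes read above the floor on both arrays, by enzyme group (coloured) and neighbouring pathway list (grey), 1 point per gene with vertical offsets for legibility only, the median as a red bar and 1.5-fold as dotted lines. Medians lie close to 0 in most groups, and the list for pyruvate entry into mitochondria has the lowest, −0.33.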

How the data were processed

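Total RNA was measured on 2 Affymetrix arrays, 1 per group. The authors deposited 1 linear intensity per probeset and array. Per the labels' protocols, RNA was labelled with biotin by the manufacturer's procedures. The authors' summarisation, background correction and scaling of the intensities, and their detection calls, were not given in the sources used here. Gene names came from GEO's platform annotation, and symbols were checked by Entrez identifier against the RefSeq table of assembly GRCm38.p6. Of 45037 probesets other than 64 controls, 34945 had 1 symbol, 932 several and 9160 none. Log2 ratios were taken from the signals as deposited, with no offset, in Python 3.11.15 with pandas 2.3.3, and the steps were tested on simulated data. Counts used a fixed 1.5-fold threshold. With 1 array per group there was no test, standard error or p-value. The number of arrays limits the precision of every value. Every member was named, and of the other pathway genes Pkm, Slc2a1 and those past 1.5-fold; a few more, such as Hif1a, were named after their values were seen. A gene with a reading below the floor is given by its signals alone. Members and lists were chosen with earlier results of these data known.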

Additional observations from a re-analysis of the deposited data

Results flagged for a closer look

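A signal outside the values used for the genes came from a dim probeset annotated to Gapdh and a Gapdh pseudogene. It read 45.2 with the empty vector and 69.5 with miR-155, a log2 ratio of 0.62, or 1.54-fold. The other probesets annotated to Gapdh and further genes gave 0.02 and 0.07. Whether the dim probeset reads Gapdh itself was not tested.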

How the results depend on the processing

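The pentose phosphate median stayed between −0.16 and −0.06 over all alternatives run, and the difference between the glycolytic and pentose phosphate medians stayed above 0, from 0.08 to 0.29. The number of members at least 1.5-fold higher was 2 as reported, and 1 with an offset of 50, with plain probesets only, with readings raised to the floor and with the median of a gene's probesets above the floor. It was 3 with no filter on dim genes. In the upper 25% of signal, where 19 members were left, it was 0, and 0 were lower. The number at least 1.5-fold lower was 1 as reported, 0 with the offset and 2 with the mean of all probesets. With that mean, the medians were 0.13 for glycolysis and −0.24 for pyruvate fate, and the difference was 0.24. With plain probesets, where 15 members were left (5 glycolytic and 4 of the pentose phosphate branch), the glycolytic median was 0.19 and the difference 0.29. The log2 ratio of Pgd was −0.63 with the mean and with the median of its probesets, and that of Hk3 was 0.41 with plain probesets. With plain probesets the member called higher was Pfkfb3, and the member called lower was Pdk1 (−0.62). The ratios of Hk3, Pfkfb3 and Ldhb, the members called as reported, kept their sign wherever they were left. Those of Pgk1, Pdk3, Pdha1, Pdhb, Pfkl, Tpi1 and Tkt changed sign in at least 1 alternative. Pfkl went from −0.24 to 0.28 with the mean of all probesets, and Tkt from 0.12 to −0.26 with plain probesets. The median over probesets and the inclusion of control probesets were added after the data were seen. Over all genes, the counts were 484 higher and 545 lower as reported, 196 and 188 with the offset, 713 and 978 with the mean of probesets, 3111 and 3848 with no filter, and 110 and 95 in the upper 25% of signal. No paired analysis was possible because each group has 1 array. Without detection calls, signals near the floor have unknown precision.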

Other observations

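Genes of the neighbouring pathways that failed the filter on mean signal included 2 whose readings lay on either side of the floor by a wide margin, named after their values were seen. Acod1, the enzyme that makes itaconate from the citric acid cycle in activated macrophages, read 0.74 with the empty vector and 45.2 with miR-155, on 1 probeset. Hkdc1, a hexokinase-like gene, read 56.1 and 1.80, and its other probeset read 1.55 and 2.13. No ratio is given for either, since no detection limit is known.

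Gpd1l, a glycerol 3-phosphate dehydrogenase-like enzyme, was just inside the 1.5-fold threshold at 498 and 332 (log2 ratio −0.58), while its further probeset gave 0.16.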
